A study of Mus musculus with 13 samples.

Results

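Transcript levels of 8 transcription factors of early oocyte differentiation, *Figla*, *Sohlh1*, *Sohlh2*, *Nobox*, *Lhx8*, *Taf4b*, *Tbpl2* and *Foxo3*, were examined in germ cells of the fetal mouse ovary with and without the glucocorticoid receptor (GR, encoded by *Nr3c1*). The 8 genes were taken by name from the 55335 genes of the deposited count table, and each name matched 1 gene. Germ cells were sorted at E17.5 from the ovaries of single embryos by the GFP of a *Pou5f1* transgene that every embryo carried, and each embryo gave 1 library of the 3′ Tag-Seq kind, which reads the end of polyadenylated transcripts. WT (n = 3) and KO (n = 3) embryos came from crosses of parents heterozygous for a constitutive *Nr3c1* deletion of exon 3, and KO embryos carried the deletion on both alleles. In the conditional cross every embryo was homozygous for the floxed *Nr3c1* allele, in which exon 3 is flanked by loxP sites, and every dam received 125 μg/g tamoxifen at E10.5. The cKO embryos (n = 4) carried a tamoxifen-activated CreERT2 driven from the *Pou5f1* locus, which is active in germ cells, and the flox embryos (n = 3) did not, so that loss of the receptor and presence of CreERT2 cannot be told apart in this comparison. The question put to the data was whether these factors differ in level between GR-deficient and GR-intact germ cells in either model.

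The 8 proteins belong to the program that turns a meiotic germ cell into an oocyte of a primordial follicle. FIGLA, SOHLH1 and SOHLH2 are basic helix-loop-helix (bHLH) factors that bind E-box sequences as dimers, and NOBOX and LHX8 are homeodomain factors of the same network. Loss of any of several of these factors leads to loss of oocytes around the time follicles form. TAF4B and TBPL2 are germline forms of subunits of the general transcription machinery, and FOXO3 is a forkhead factor that holds primordial follicles dormant until PI3K signalling removes it from the nucleus.

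Between 2048706 and 3674989 reads were counted per library, and 1 read corresponded to 0.272 to 0.486 CPM, the scale on which counts of libraries of unequal size are compared, here after TMM normalization. Of 10 fetal oocyte marker genes, 9 had counts in every library, with a summed level of 9479 to 16930 CPM. The remaining marker, *Sycp3*, was at 0 in every library, and its annotated interval lies wholly inside that of *Chpt1*. Ovarian somatic markers summed to 91.3 to 379 CPM over 15 genes and erythroid markers to 0 to 1263 CPM over 7 genes. The library flox 1 had the highest erythroid sum and the lowest oocyte marker sum of all 13. *Nr3c1* itself had 44.6 ± 14.8 CPM (SD, n = 3) in WT and 44.6 ± 25.3 CPM (SD, n = 3) in KO. Its mean was 65.8 CPM in flox (46.5 to 104 CPM) and 52.6 CPM in cKO (30.1 to 72.8 CPM), with overlap. A 3′ tag lies outside the deleted exon 3 and does not read the deletion itself. The paper, however, reports a loss of total *Nr3c1* transcript in KO ovarian cells at an earlier stage, from single-cell libraries also read at the 3′ end. The KO mean here showed no such loss of transcript, and the reason was not tested. The paper also reports loss of the receptor protein by immunofluorescence in KO ovaries at E17.5, the stage of these libraries. Immunoblot and qRT-PCR at earlier stages are further evidence of the deletion given there.

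By the GENCODE M21 annotation of mm10, *Figla* occupies chr6:86016171-86020996 on the + strand, *Sohlh1* chr2:25842995-25847248 on the − strand and *Sohlh2* chr3:55182028-55209957 on the + strand. *Nobox* occupies chr6:43303674-43309554 and *Lhx8* chr3:154306294-154330659, both on the − strand. *Tbpl2* occupies chr2:24071721-24096595 and *Foxo3* chr10:42181841-42276755, also on the − strand. The length given in the deposited table was that of the whole interval, of which exons make up between 4.4% for *Taf4b* and 34.2% for *Nobox*. Apart from *Taf4b*, none of the 8 overlaps another annotated gene.

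A bHLH dimer reads the E-box, CANNTG, which is its own reverse complement. RefSeq promoter sequence (GRCm38.p6) was matched for 7 of the 8 genes, all but *Taf4b*, and the 250 bases before the RefSeq start were searched on both strands. For *Figla* this start lies 1020 bases inside the GENCODE interval. *Sohlh1* had 5 E-boxes, a number reached by 1.15% of the 32851 promoters in the table, and 3 of these read CACGTG. *Tbpl2* had 4, *Figla* and *Nobox* 2 each, *Sohlh2* 1, and *Lhx8* and *Foxo3* none, while 66.2% of all promoters had at least 1. The promoters of the 2 SOHLH genes and of *Nobox* are shown because they set the gene richest in E-boxes beside the gene with the largest KO difference and a homeodomain factor. Each is written 5′ to 3′ on the strand of its gene, with E-boxes in capitals, for chr2:25847249-25847498 (− strand), chr3:55181794-55182043 (+ strand) and chr6:43309555-43309804 (− strand).
Sohlh1: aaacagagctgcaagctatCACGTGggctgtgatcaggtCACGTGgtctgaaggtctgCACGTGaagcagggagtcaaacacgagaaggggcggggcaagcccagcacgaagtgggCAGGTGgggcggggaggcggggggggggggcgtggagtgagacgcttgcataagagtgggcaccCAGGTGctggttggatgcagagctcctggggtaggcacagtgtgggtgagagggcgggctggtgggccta
Sohlh2: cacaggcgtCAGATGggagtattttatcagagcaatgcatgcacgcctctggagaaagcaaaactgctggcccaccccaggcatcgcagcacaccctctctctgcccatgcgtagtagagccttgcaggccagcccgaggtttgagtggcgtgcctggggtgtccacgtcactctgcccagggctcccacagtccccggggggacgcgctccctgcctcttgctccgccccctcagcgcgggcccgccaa
Nobox: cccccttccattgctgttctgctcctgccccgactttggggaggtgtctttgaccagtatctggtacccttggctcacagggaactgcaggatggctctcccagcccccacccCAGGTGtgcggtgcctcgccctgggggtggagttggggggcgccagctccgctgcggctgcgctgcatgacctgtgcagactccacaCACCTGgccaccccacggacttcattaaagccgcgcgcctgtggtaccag
The NOBOX element TAATTG was found in none of the 7 promoters and in 7.17% of all, and the FOXO site TGTTTAC in none of the 7 and in 3.17% of all. The glucocorticoid receptor half-site AGAACA was found once, in the promoter of *Nobox*, and in 16.1% of all promoters. The E-box has no base overlap with the other motifs in these windows. These matches describe letters and are not evidence of binding.

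Of the 8 factors, 7 had counts enough to be tested and none of the 7 was called in any comparison. Levels of *Sohlh2* were higher in every KO library than in every WT library, with 2.35-fold more in the fit, but this did not pass the test after adjustment over 13086 genes. *Nobox* had a higher mean in GR-deficient germ cells of both models, with libraries that overlapped. For the other 5 tested factors the log2 fold changes of the 2 models lay between −0.43 and 0.33, and *Tbpl2* had reads in 3 libraries only.

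In KO against WT, edgeR's quasi-likelihood test after Benjamini-Hochberg adjustment called 0 of 7 factors and 0 of 13086 genes (0.0%). The unadjusted p was under 0.05 for 761 genes (5.82%), 309 of them higher in KO (2.36%), and *Sohlh2* was the 1 factor among them. DESeq2 called 12 genes and limma voom 0, with no factor among them. KO and WT libraries did not overlap for 1238 genes (9.46%), of which 496 were higher in KO (3.79%), and again *Sohlh2* was the 1 factor. In cKO against flox, the same edgeR test called 0 of 7 factors and 0 genes (0.0%), with an unadjusted p under 0.05 for 418 genes (3.19%) and for none of the factors. DESeq2 called 5 genes there and limma voom 0, with no factor among them. The cKO and flox libraries did not overlap for 650 genes (4.97%) and for none of the factors. The median log2 fold change of the 7 factors was 0.19 for KO against WT, beside −0.03 for all tested genes, and 0.08 for cKO against flox, beside −0.01.

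**Figure D1:**
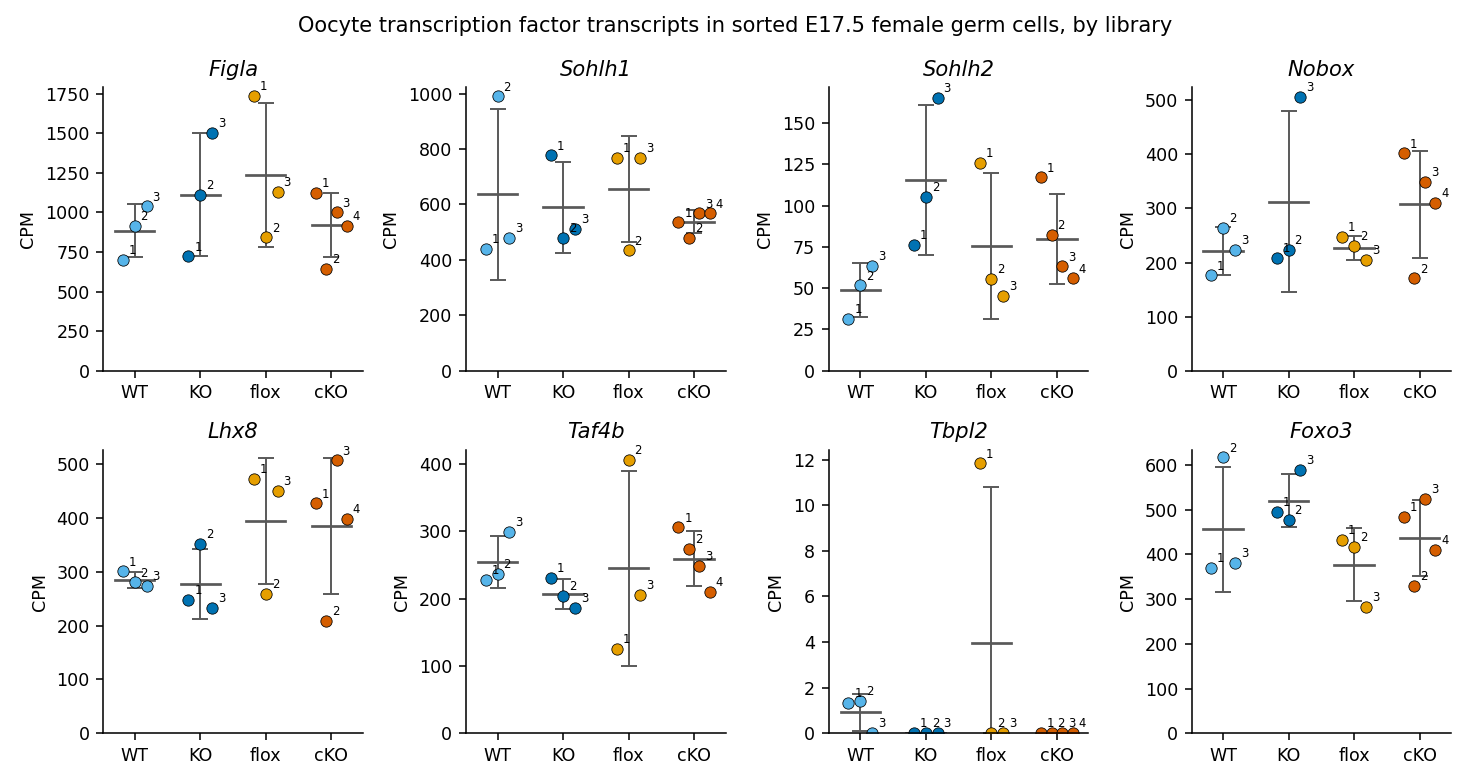
CPM (y axis, from 0) of each of the 8 factors in every library of WT, KO, flox and cKO germ cells (x axis), with the replicate number beside each point, the group mean as a horizontal line and the SD as a bar that is drawn no lower than 0. The 3 KO libraries sit above the 3 WT libraries for *Sohlh2*, the groups of the other tested factors overlap, and *Tbpl2* has reads in 3 libraries.

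Among the bHLH factors, *Figla* encodes the activator of the zona pellucida genes. Its level was 702, 916 and 1038 CPM in the WT libraries and 722, 1113 and 1503 CPM in the KO libraries. In the conditional cross it was 1736, 842 and 1132 CPM in flox and 1122, 642, 1000 and 913 CPM in cKO. KO 3 and flox 1 were the highest libraries and cKO 2 the lowest, and both pairs of groups overlapped. The group means ran from 885 ± 170 CPM (SD, n = 3) in WT through 919 ± 203 CPM (SD, n = 4) in cKO and 1113 ± 391 CPM (SD, n = 3) in KO to 1237 ± 456 CPM (SD, n = 3) in flox, and no neighbours in this order differed beyond their spread. *Figla* had a log2 fold change of 0.33 (SE 0.31) in KO over WT and −0.43 (SE 0.29) in cKO over flox. The former lay between 0.05 without KO 3 and 0.56 without KO 1. Without flox 1 the latter was −0.10, and the difference between the models, −0.76 (SE 0.42), had an adjusted p of 1.0 in edgeR's quasi-likelihood test after Benjamini-Hochberg adjustment.

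*Sohlh1* encodes a bHLH factor needed for oocytes to progress through follicle formation. It was read at 438, 990 and 480 CPM in WT and at 777, 478 and 512 CPM in KO. The flox libraries gave 768, 434 and 767 CPM and the cKO libraries 535, 479, 567 and 568 CPM. WT 2 stood above every other library, and the cKO libraries spanned the narrowest range of the 4 groups, inside that of flox. The group means were 636 ± 307 CPM (SD, n = 3) in WT, 589 ± 163 CPM (SD, n = 3) in KO, 656 ± 192 CPM (SD, n = 3) in flox and 537 ± 41.5 CPM (SD, n = 4) in cKO, with no neighbours in their order apart by more than their spread. The log2 fold change was −0.11 (SE 0.32) in KO over WT and −0.29 (SE 0.29) in cKO over flox.

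*Sohlh2* encodes the dimer partner of SOHLH1 and was the lowest in reads of the 7 tested factors, with 71 to 375 counts per library. Its level was 31.4, 51.6 and 63.6 CPM in WT and 76.0, 105 and 165 CPM in KO. It was 126, 55.5 and 45.1 CPM in flox and 117, 82.4, 63.2 and 55.9 CPM in cKO. The lowest KO library was above the highest WT library, whereas flox 1 alone exceeded all cKO libraries and the other flox libraries lay below all cKO libraries. The means ran in the order WT, 48.9 ± 16.3 CPM (SD, n = 3), flox, 75.5 ± 44.0 CPM (SD, n = 3), cKO, 79.6 ± 27.3 CPM (SD, n = 4), and KO, 115 ± 45.3 CPM (SD, n = 3), and each group overlapped its neighbours in this order. The log2 fold change for KO against WT was 1.23 (SE 0.47, 95% confidence interval 0.27 to 2.20), with an unadjusted p of 0.0141 and an adjusted p of 0.847 in edgeR's quasi-likelihood test after Benjamini-Hochberg adjustment. The adjusted p lay between 0.443 and 1.0 over the alternatives tried. Of all genes tested, 1.35% had a lower p, and an exact permutation test of the 6 libraries gave p = 0.1, the lowest that 20 divisions allow. Without KO 3 the log2 fold change was 0.88 (SE 0.51), and without WT 1 it was 1.00 (SE 0.52), and in both cases the unadjusted p was above 0.05.

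In cKO against flox the log2 fold change of *Sohlh2* was 0.08 (SE 0.43), and without flox 1 it was 0.66 (SE 0.48). The difference between the models was −1.16 (SE 0.63, 95% confidence interval −2.46 to 0.14), so that the change in *Sohlh2* was not shown to differ between them. That comparison called 0 genes in edgeR's quasi-likelihood test (0.0%), with an unadjusted p under 0.05 for 574 genes (4.39%) and for none of the factors, and DESeq2 called 10 genes and limma voom 0, none of them a factor. KO 3, the library with the most *Sohlh2*, had an erythroid marker sum of 0 CPM and 12311 CPM of oocyte markers, while flox 1, with the second highest *Sohlh2* level, had 1263 and 9479 CPM. Between the constitutive groups, other measures differed as well. The KO libraries had counts for 12946 to 13544 genes and the WT libraries for 13841 to 14721, without overlap. The 7 endothelial and macrophage markers summed to 7.65 to 31.98 CPM in KO and 30.9 to 40.0 CPM in WT, and the ovarian somatic markers to 91.3 to 139 CPM in KO and 104 to 175 CPM in WT. These sums are without TMM factors. The factors of KO 1, at 31.98 CPM, and WT 1, at 30.9 CPM, were 1.03 and 0.976. Dividing by them reverses the order of these libraries, so overlap of the endothelial and macrophage ranges depends on the scale. Of the 10 tested ovarian somatic markers, 5 were higher and 5 lower in KO, with a median log2 fold change of −0.04. Among them, the stromal marker *Nr2f2* had 31.1 ± 7.01 CPM (SD, n = 3) in KO and 66.6 ± 31.7 CPM (SD, n = 3) in WT. *Pecam1*, the 1 tested gene of the endothelial and macrophage list, had a log2 fold change of −1.41 (SE 0.71) in KO over WT. It held 1260 reads in all, where *Cdh5* and *Kdr* of the same list held 75 and 45. Whether the *Pecam1* reads come from endothelial cells was not tested. The unadjusted p of *Nr2f2* and *Pecam1* was 0.0371 and 0.0580 and their adjusted p 0.847 in the same edgeR fit. The part of these library differences in the *Sohlh2* values was not tested. In sorted cell pools, fewer cells of a kind and less RNA per cell cannot be told apart.

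Of the homeodomain factors, *Nobox* encodes an activator of growth and maturation genes of the oocyte. It was at 176, 265 and 224 CPM in WT and 208, 223 and 506 CPM in KO. It was at 248, 231 and 204 CPM in flox and 402, 171, 349 and 311 CPM in cKO. KO 3 alone lifted the KO mean, and 3 of the 4 cKO libraries were above all flox libraries while cKO 2 was below them. The means were 221 ± 44.3 CPM (SD, n = 3) in WT, 228 ± 22.1 CPM (SD, n = 3) in flox, 308 ± 99.0 CPM (SD, n = 4) in cKO and 313 ± 168 CPM (SD, n = 3) in KO, with overlap at every step.

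The log2 fold change of *Nobox* was 0.50 (SE 0.35) for KO against WT, and −0.04 (SE 0.35) without KO 3. For cKO against flox it was 0.44 (SE 0.33), and 0.64 without cKO 2. Averaged over the models it was 0.47 (SE 0.24), with an unadjusted p of 0.0652 and an adjusted p of 0.903 in edgeR's quasi-likelihood test after Benjamini-Hochberg adjustment. An exact permutation test within models, over 700 divisions, gave p = 0.18 for this average.

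*Lhx8* encodes a LIM-homeodomain factor required for the oocyte to form a primordial follicle. Its level was 300.4, 280.0 and 273 CPM in WT and 248, 352 and 233 CPM in KO. It was 472, 259 and 451 CPM in flox and 427, 209, 507 and 398 CPM in cKO. The WT libraries lay within a narrow range, and in the conditional cross flox 2 and cKO 2 were each well below the other libraries of their group. The log2 fold change was −0.04 (SE 0.32) in KO over WT and −0.03 (SE 0.30) in cKO over flox, with 95% confidence intervals of −0.70 to 0.63 and −0.65 to 0.58.

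The means of *Lhx8* were 277 ± 64.6 CPM (SD, n = 3) in KO and 285 ± 14.1 CPM (SD, n = 3) in WT, below 385 ± 126 CPM (SD, n = 4) in cKO and 394 ± 117 CPM (SD, n = 3) in flox. Between the conditional and the constitutive cross, *Lhx8* differed by a log2 fold change of 0.47 (SE 0.22, 95% confidence interval 0.02 to 0.93). Its unadjusted p was 0.0433 and its adjusted p 0.869 in edgeR's quasi-likelihood test after Benjamini-Hochberg adjustment, and 0.740 to 1.0 over the alternatives. The unadjusted p was 0.0514 with limma voom, and it was above 0.05 in 10 of the 13 fits that left out 1 library. That comparison called 1 gene (0.00764%), which was none of the factors, and had an unadjusted p under 0.05 for 731 genes (5.59%), 445 of them higher in the conditional cross (3.4%), with *Lhx8* the 1 factor among them. DESeq2 called 35 genes there, with no factor among them. The crosses overlapped, because flox 2 and cKO 2 fell within or below the range of WT and KO. An exact permutation test over 1716 divisions of the libraries gave p = 0.0763. Cross, tamoxifen and any separate handling of the crosses cannot be told apart in it.

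*Taf4b* encodes a germline paralog of the TAF4 subunit of TFIID, the complex that recognises core promoters. It occupies chr18:14783245-14900359 on the + strand, and another annotated gene, *AC133172.1*, covers 1349 of its bases, where reads of the 2 genes cannot be told apart. *Taf4b* was at 228, 237 and 299 CPM in WT and 231, 204 and 186 CPM in KO. It was at 125, 406 and 205 CPM in flox and 306, 274, 249 and 210 CPM in cKO. The lowest and the highest of the 13 libraries were both flox libraries, and KO and WT overlapped by 1 library each. The means were 207 ± 22.7 CPM (SD, n = 3) in KO, 245 ± 145 CPM (SD, n = 3) in flox, 255 ± 38.8 CPM (SD, n = 3) in WT and 260 ± 40.6 CPM (SD, n = 4) in cKO, none apart from the next beyond their spread. *Taf4b* had a log2 fold change of −0.30 (SE 0.34) in KO over WT and 0.08 (SE 0.32) in cKO over flox, and the latter was −0.24 without flox 1 and 0.65 without flox 2.

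*Tbpl2* encodes a TBP paralog that replaces TBP in growing oocytes. It had 34 reads in all, of which 28 were in flox 1 and 3 each in WT 1 and WT 2, and 0 in the other 10 libraries. This was 11.8 CPM in flox 1, 1.33 in WT 1 and 1.43 in WT 2. A count of 0 allows up to 3 counts per library, so a level near that of the WT libraries was not detectable at this depth. The filter on low counts left *Tbpl2* out of the test. The only library with more than 3 reads was thus also the one with the most erythroid and the fewest oocyte marker reads, and whether these are related was not tested.

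*Foxo3* was at 370, 617 and 382 CPM in WT and 496, 477 and 589 CPM in KO. It was at 433, 416 and 283 CPM in flox and 484, 330, 524 and 410 CPM in cKO. WT 2 was the highest library and flox 3 the lowest, and in each model the GR-deficient libraries overlapped the controls. The means were 377 ± 82.4 CPM (SD, n = 3) in flox, 437 ± 85.2 CPM (SD, n = 4) in cKO, 456 ± 139 CPM (SD, n = 3) in WT and 521 ± 60.2 CPM (SD, n = 3) in KO, with no neighbours apart beyond their spread. *Foxo3* had a log2 fold change of 0.19 (SE 0.29) in KO over WT and 0.21 (SE 0.27) in cKO over flox, with 95% confidence intervals of −0.40 to 0.78 and −0.34 to 0.77. Leaving out 1 library took the first to between 0.06 without WT 1 and 0.47 without WT 2, and the second to between 0.05 without flox 3 and 0.33 without cKO 2.

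**Figure D2:**
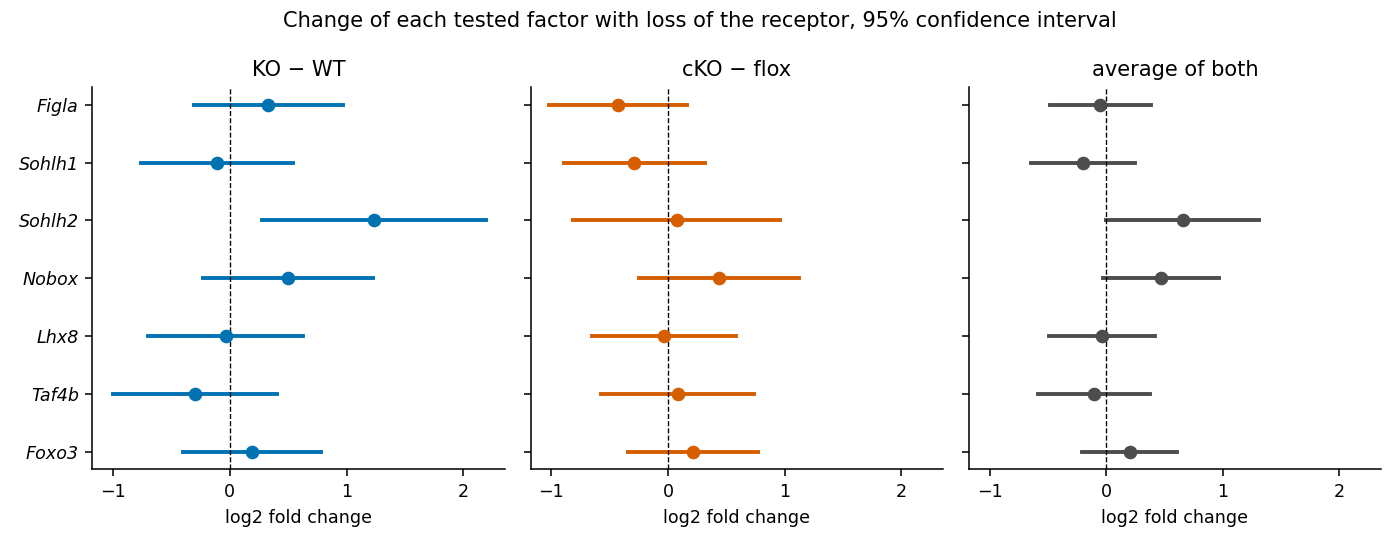
Log2 fold change (x axis) of the 7 tested factors for KO against WT, cKO against flox and the average of both models, as points with 95% confidence intervals from the edgeR fit. The interval of *Sohlh2* for KO against WT, 0.27 to 2.20, is the 1 interval of the 21 that leaves out 0.

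Averaged over both models, none of the 7 factors was called by edgeR's quasi-likelihood test (0.0% of 13086 genes), where 699 genes had an unadjusted p under 0.05 (5.34%) and none of the factors did. DESeq2 called 14 genes for this average and limma voom 0, with no factor among them. *Sohlh2* had an average log2 fold change of 0.65 (SE 0.32) and an unadjusted p of 0.0502 in the edgeR fit. This p was 0.0461 with RLE scaling, 0.0442 by DESeq2, 0.0341 without a filter on low counts and 0.0450 with the replicate block. It was 0.0568 with upper-quartile scaling, 0.0651 with limma voom and 0.0553 with at least 10 counts in every library. With 1 library left out it was 0.00780 to 0.164, and not under 0.05 in 8 of 13 fits. Without the filter, *Nobox* had an unadjusted p of 0.0329 for the average, and *Tbpl2*, with reads almost only in flox 1, was also under 0.05. The unadjusted p of *Nobox* was 0.116 with limma voom and 0.140 with the replicate block. An exact permutation test within the models gave p = 0.0814 for *Sohlh2*. Among the others the average lay between −0.20 for *Sohlh1* and 0.20 for *Foxo3*, apart from *Nobox* as given above. The average and both single comparisons share their libraries and are not independent of each other.

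WT 1 was below the mean of 13 libraries for 7 of 7 factors, and cKO 1 was above it for 6 of 7. The lowest library was cKO 2 for *Figla*, *Nobox* and *Lhx8*, while its *Sohlh2* and *Taf4b* lay above their means. In flox 1, *Figla* was the highest of the 13 and *Taf4b* the lowest. KO 3 was the highest for *Sohlh2* and *Nobox*, and in WT 2 the same held for *Sohlh1* and *Foxo3*.

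**Figure D3:**
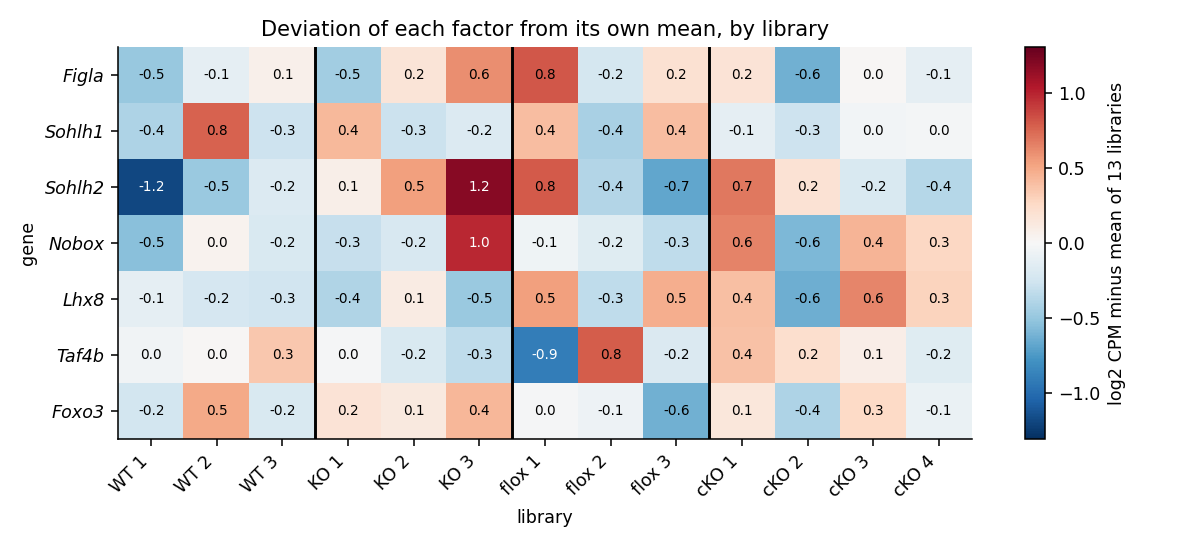
Deviation of log2 CPM of each tested factor (rows) in each library (columns, groups parted by vertical lines) from the mean of that factor over 13 libraries, with red above and blue below the mean and the deviation printed in each cell. WT 1 is below the mean in all 7 rows, and flox 1 combines the highest *Figla* with the lowest *Taf4b*.

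The spread between embryos of 1 group set how small a change could be seen. The coefficient of variation within groups was 29.4% for *Figla*, 31.7% for *Sohlh1*, 42.5% for *Sohlh2* and 33.2% for *Nobox*. For tested genes whose mean count was within 1.5 times that of the factor, the median was 21.8%, 22.7%, 36.8% and 25.8%, in the same order. *Taf4b* varied by 31.9%, beside 26.3% for genes of like count, and *Lhx8* by 25.1%, beside 24.6%. *Foxo3* was the 1 factor below the median of its comparison genes, at 21.9% beside 24.2%.

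**Figure D4:**
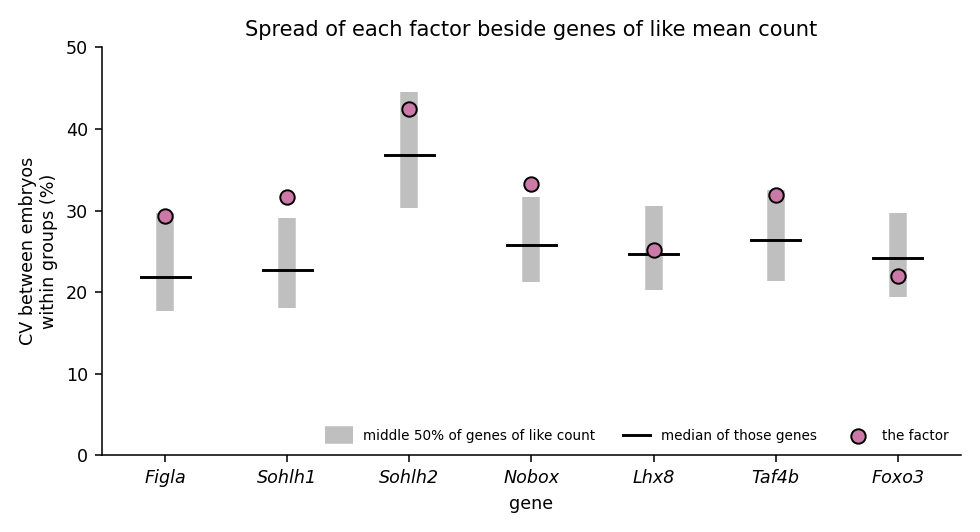
Coefficient of variation between embryos within groups (y axis, percent, from 0) of each tested factor (points), with the median (black line) and middle 50% (grey bar) of tested genes whose mean count was within 1.5 times. *Sohlh1*, at 31.7%, and *Nobox*, at 33.2%, lie above the grey bar, and *Foxo3*, at 21.9%, lies below its median.

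Genes of the same machinery were read in lists. *Stat3*, a signal-activated transcription factor, *Dynll1*, which encodes a dynein light chain, and *Sub1*, which encodes a transcription coactivator, belong with several of these factors to a set known to give stem cells an oocyte-like program. For KO against WT their log2 fold changes were 0.65 (SE 0.41), 0.46 (SE 0.33) and 0.01 (SE 0.23). For cKO against flox they were 0.49 (SE 0.39), 0.10 (SE 0.31) and −0.05 (SE 0.21), so that 0 of 3 were called and 0 of 3 had an unadjusted p under 0.05 in either model.

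Of 5 partner genes, *Tcf3*, *Tcf4* and *Tcf12* encode E proteins, with which tissue-specific bHLH factors dimerise, and *Ldb1* and *Ldb2* encode cofactors of LIM domains. None of the 5 had an unadjusted p under 0.05 in either model. *Tcf12* had 345 ± 78.0 CPM (SD, n = 3) in WT and 331 ± 46.1 CPM (SD, n = 3) in KO, a log2 fold change of −0.06 (SE 0.28), and *Tcf4* differed by −0.04 (SE 0.34). *Tcf3* differed by −0.11 (SE 0.52) for KO against WT and by −0.78 (SE 0.48) for cKO against flox. *Ldb1* had 0 to 102 counts per library and *Ldb2* 0 to 43, and their fitted values of 1.49 (SE 1.55) and −3.92 (SE 2.49) for KO against WT rest on few reads.

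The genes related to the factors were *Tbp*, *Tbpl1*, *Taf4*, *Foxo1*, *Foxo4*, *Foxo6* and *Lhx6*. Of these 7, *Foxo1*, which encodes a forkhead factor related to FOXO3, was the 1 with an unadjusted p under 0.05 in either model. Its level was 170 ± 41.1 CPM (SD, n = 3) in WT and 284 ± 55.6 CPM (SD, n = 3) in KO, a log2 fold change of 0.74 (SE 0.31) with an adjusted p of 0.847 in edgeR's quasi-likelihood test after Benjamini-Hochberg adjustment. In the conditional cross it was 192 ± 36.8 CPM (SD, n = 3) in flox and 169 ± 27.7 CPM (SD, n = 4) in cKO, a log2 fold change of −0.18 (SE 0.29). The difference between the models was −0.92 (SE 0.42), which had an adjusted p of 1.0 by the same test. *Tbp* differed by 0.48 (SE 0.62) in KO over WT and 0.11 (SE 0.57) in cKO over flox, *Tbpl1* by 0.83 (SE 0.80) and −0.35 (SE 0.73), and *Taf4* by 1.00 (SE 1.03) and −0.47 (SE 0.95). *Foxo4*, with 0 to 39 counts per library, differed by 0.04 (SE 1.63) and −0.34 (SE 1.52), and *Foxo6*, with 0 to 95, by 1.79 (SE 1.70) and 0.24 (SE 1.56). *Lhx6* had 0, 5 and 29 counts in WT and 0 in each KO library, so that the WT level rests mainly on 1 library and no fold is given. For cKO against flox it differed by 1.44 (SE 2.36).

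Of 17 genes of TFIID and TFIIA, the complexes in which TAF4B and TBPL2 act, 14 could be tested and none was called or had an unadjusted p under 0.05 in either model. Their median log2 fold change was 0.29 in KO over WT and −0.09 in cKO over flox. *Taf7l*, *Taf1* and *Taf5* had the most reads, and their values were −0.12 (SE 0.32), 0.05 (SE 0.31) and 0.18 (SE 0.31) for KO against WT. *Taf7* and *Taf9* were at 0 in every library, and both lie wholly inside the intervals of other annotated genes, where the counts of the table do not resolve them.

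Of 17 genes of the PI3K and FOXO3 axis, which decides when a dormant follicle is activated, all 17 were tested and none was called or had an unadjusted p under 0.05. Their median log2 fold change was −0.14 in KO over WT and 0.10 in cKO over flox. *Kit*, the receptor upstream of PI3K in oocytes, differed by −0.44 (SE 0.34) and 0.27 (SE 0.32) in the order KO against WT and cKO against flox, and *Mtor*, a growth kinase downstream of it, by −0.14 (SE 0.35) and 0.08 (SE 0.33).

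Of 13 target genes of the factors, 8 could be tested and none was called. *Nlrp5*, a maternal effect gene of the oocyte, was the 1 with an unadjusted p under 0.05 in KO against WT, and there was none in cKO against flox. It had 193, 985 and 102 counts in WT and 133, 84 and 0 in KO, with 1 WT library far above the rest, and its log2 fold change was −2.67 (SE 0.93) with an adjusted p of 0.847 in edgeR's quasi-likelihood test after Benjamini-Hochberg adjustment. For cKO against flox it was 0.81 (SE 0.83). *Zp2*, a zona pellucida gene, differed by 0.95 (SE 1.06) and 0.26 (SE 0.97) in the same order. *Padi6*, which encodes a protein of the oocyte cytoplasm, differed by 1.94 (SE 1.43) and 2.70 (SE 1.44), with 139 counts in KO 3, 116 in cKO 1, 100 in cKO 4 and 0 to 19 in each of the other libraries. Its average over the models was 2.32 (SE 1.01), with an unadjusted p of 0.0311 and an adjusted p of 0.899 in edgeR's quasi-likelihood test after Benjamini-Hochberg adjustment. The median of the 8 target genes for KO against WT was −0.07 as fitted, and 0.78 over 7 genes when *Mos*, at or under the floor of 3 counts per library in both groups, was left out. For cKO against flox the median was 0.15. *Zar1* was at 0 in every library, and no other gene covers it.

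**Figure D5:**
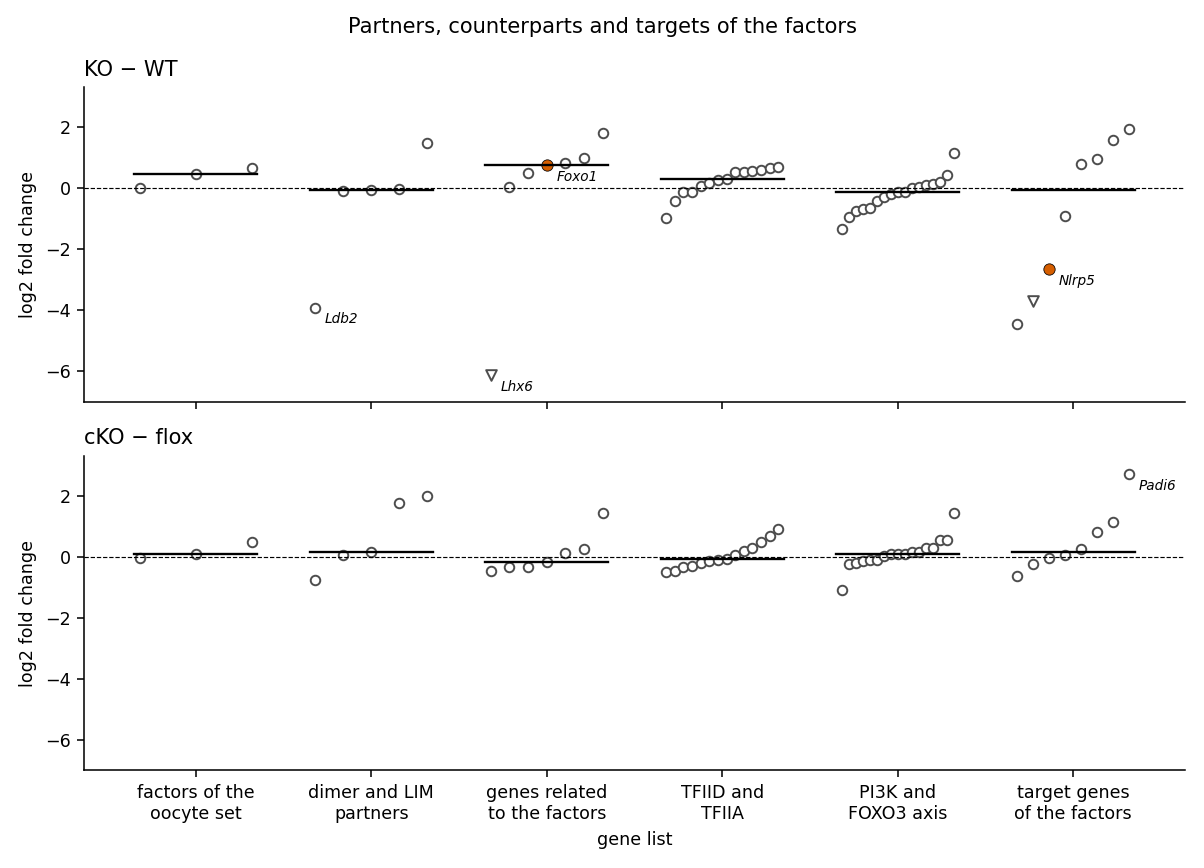
Log2 fold change (y axis) of the tested genes of 6 lists (x axis) for KO against WT (top) and cKO against flox (bottom), with the list median as a line, filled points for an unadjusted p under 0.05 and triangles for fitted values of genes at 0 in a whole group, which are no measure of size. The filled points are *Foxo1* and *Nlrp5* for KO against WT, and no point is filled for cKO against flox.

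The summed level of the erythroid markers was 284 to 1263 CPM in flox and 78.4 to 199 CPM in cKO, with no overlap, and 3 of 3 tested erythroid genes had an unadjusted p under 0.05, beside 3.19% of all genes. None of the 3 was called in edgeR's quasi-likelihood test after Benjamini-Hochberg adjustment, with an adjusted p of 1.0 for each. The highest erythroid sum was that of flox 1, and leaving it out took the log2 fold change of *Figla* from −0.43 to −0.10, that of *Sohlh1* from −0.29 to −0.16 and that of *Lhx8* from −0.03 to 0.12. That of *Sohlh2* went from 0.08 to 0.66, and that of *Taf4b* went down, from 0.08 to −0.24. The 9 detected oocyte markers had a median log2 fold change of 0.09 in KO over WT and 0.05 in cKO over flox. The part of red cell RNA in the levels of the factors was not tested.

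For *Figla*, *Sohlh1* and *Foxo3*, the 3 factors with the most reads, the genes most alike over the 13 libraries were sought among 7175 other genes averaging 50 counts or more. By Pearson's r of log2 CPM, they were *Kat2a* (0.85), *AY512915* (0.84) and *Lsm6* (0.84) for *Figla*. They were *Tex19.2* (0.86), *Swi5* (0.84) and *Nmt2* (0.83) for *Sohlh1*, and *Cox18* (0.89), *Atad2b* (0.86) and *Zbtb10* (0.85) for *Foxo3*. With values centred by cross, r of these 9 genes lay between 0.82 and 0.89. No other factor of the 8 was among them. These are the highest of many values over 13 points that share depth and cross, and they are given as a description.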

How the data were processed

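Single-embryo libraries of sorted germ cells were made by 3′ Tag-Seq. The authors trimmed reads with cutadapt, aligned them to mm10 with STAR 2.6.0 and deposited raw counts per gene from featureCounts 1.6.3, without normalization. The annotation and strand setting are not given in the sources used here. Symbols were taken from GENCODE M21, which named 54587 of 55335 genes. The authors' tables for KO against WT and cKO against flox, made with edgeR 3.28.1 and limma 3.42.2, hold their fold changes and p-values and were not used.

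Counts were tested with edgeR 4.0.16 in R 4.3.3. filterByExpr (minimum count 10, minimum total count 15) kept 13086 genes, TMM factors scaled the libraries, and the quasi-likelihood F test came from 1 fit of all 13 libraries with a mean per group and no covariate. Genes with a Benjamini-Hochberg adjusted p ≤0.05 were called. Log2 CPM used a prior count of 2. Single factors were also tested by two-sided exact permutation of libraries on the difference of mean log2 CPM, where 20 divisions of KO and WT allow no p under 0.1 and 35 of cKO and flox none under 0.0286. The fitting script was tested on simulated data. Intervals of fold changes rest on the spread between embryos, and floors of 3 counts cover counting error only, since no molecular identifiers are described. Alternatives were RLE and upper-quartile scaling, DESeq2 1.42.0, limma 3.58.1 voom, other filters, only the 2 groups compared, a replicate block, each library left out and a prior count of 0.5.

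The 8 factors and the gene lists were chosen with earlier results of these data known. Named are all 8 factors, the whole of the 3 short lists and, of longer lists, genes with an unadjusted p under 0.05 in KO against WT or cKO against flox, filled up to 3 by mean count, of which 1 gene is not reported here. Protein sequences of the factors were not analysed here.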

Additional observations from a re-analysis of the deposited data

Results flagged for a closer look

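Among the 4 cKO libraries, the summed level of the 15 ovarian somatic marker genes stood apart in cKO 4, at 379 CPM, where the other 3 had 177 to 210 CPM. The gap to the nearest of the others made up 0.834 of the range of the group, past Dixon's 95% critical value for 4 samples, 0.829. These sums are without TMM factors, and the factor of cKO 4, 1.05, was the highest of the group. Whether cKO 4 stands apart after TMM scaling was not tested. This was 1 of 14 such values examined in the cKO group, and chance alone singles out about 1 in 20. None of the 8 factors had its lowest or highest library of the 13 in cKO 4, except for *Tbpl2*, which was at 0 there as in 9 other libraries. Leaving out cKO 4 called none of the factors in any comparison, and what the somatic reads add to the factor levels was not tested.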

How the results depend on the processing

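The 7 tested factors stayed uncalled in all 5 comparisons under every alternative run, with a lowest adjusted p of 0.443, for *Sohlh2* in KO against WT by DESeq2. Of 714 log2 fold changes of the factors under alternatives, 643 kept their sign and 71 did not, and none crossed the threshold. Counts of all genes called moved in KO over WT, cKO over flox, the average, the difference of the models and the comparison of crosses to 12, 5, 14, 10 and 35 by DESeq2 and to 15, 11, 17, 8 and 35 without a filter on low counts. With at least 10 counts in every library they moved to 1 for the average and 0 for the crosses. With 1 library left out, 0 to 2 genes were called for KO against WT (2 without WT 3) and 1 to 10 for the crosses (10 without WT 3 and 4 without KO 3). The causes were not tested. Without a filter, *Figla* had an unadjusted p under 0.05 for the difference of the models and *Tbpl2* for cKO against flox. For the difference between the models, *Lhx8* (0.00324 as reported) became −0.00822 with RLE, −0.00762 with upper-quartile scaling, −0.00746 with DESeq2, −0.00838 without a filter and −0.0557 with the replicate block. With limma voom, *Sohlh1* became 0.0125 for KO against WT and 0.00960 between the crosses, *Foxo3* −0.0417 for the difference and *Sohlh2* −0.00182 between the crosses, and without a filter *Nobox* became −0.00108 between the crosses. With 1 library left out, the log2 fold changes that took both signs were as follows. For KO against WT they ran from −0.24 to 0.0752 for *Lhx8*, −0.0377 to 0.72 for *Nobox* and −0.35 to 0.36 for *Sohlh1*. For cKO against flox they ran from −0.26 to 0.17 for *Lhx8*, −0.18 to 0.66 for *Sohlh2* and −0.24 to 0.65 for *Taf4b*. For the average they ran from −0.19 to 0.11 for *Figla*, −0.15 to 0.0695 for *Lhx8*, −0.32 to 0.0363 for *Sohlh1* and −0.27 to 0.18 for *Taf4b*. For the difference they ran from −0.26 to 0.15 for *Foxo3*, −0.23 to 0.21 for *Lhx8*, −0.28 to 0.47 for *Nobox* and −0.65 to 0.0695 for *Sohlh1*. Between the crosses they ran from −0.0593 to 0.24 for *Figla*, −0.11 to 0.28 for *Nobox*, −0.15 to 0.19 for *Sohlh1*, −0.25 to 0.22 for *Sohlh2* and −0.16 to 0.29 for *Taf4b*. Libraries with the same replicate number had an r of deviations of −0.023 to −0.0098 in the constitutive cross and 0.0010 to 0.064 in the conditional cross. With different numbers r lay between −0.045 and 0.017. All were near 0, so the numbers were not taken as pairs. With the replicate block 0 factors were called (unadjusted p 0.0450 for the average of *Sohlh2* and 0.112 for *Lhx8* between the crosses), with 0 genes for KO against WT, 0 for cKO against flox and 1 between the crosses. With 3 or 4 embryos per group and 2048706 to 3674989 reads per library, the 95% confidence intervals of single factors spanned over 1 log2 unit in each model. Differences inside an interval are compatible with the data and were not told apart.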
